A study of Homo sapiens with 2 samples.

Results

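The genes examined were the enzymes, kinases, anchoring proteins, receptors and transcription factors through which cells make, break down and read cAMP. They were taken by gene symbol from the deposited annotation of the array: the adenylyl cyclases, the lettered phosphodiesterases, the catalytic, regulatory and inhibitory subunits of protein kinase A (PKA), the Epac factors RAPGEF3 and RAPGEF4, the A-kinase anchoring proteins (AKAPs), CREB1, CREM, ATF1 and the adenosine receptors. The rule found 66 genes with 104 probes, among 34757 gene symbols on the array. A375 is an established human melanoma cell line. Its cells were transiently transfected, with Lipofectamine as carrier, with either a control siRNA (NC) or an siRNA against THOC2 (si-THOC2), and RNA was taken at 48 h according to the labels. The labels do not say which of the study's THOC2 siRNAs was used, and for both samples the source field names the other condition than the title and description, which were followed here. Each condition had 1 array and no replicate, so no test between the conditions was possible and every difference below is between these 2 arrays.

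cAMP is a small messenger molecule. Receptors coupled to stimulatory G proteins, such as MC1R in melanocytes, switch on membrane adenylyl cyclases, which make cAMP from ATP, and phosphodiesterases end the signal by hydrolysing it. cAMP frees the catalytic subunits of PKA from their regulatory subunits, AKAPs hold the kinase near its substrates, and nuclear PKA phosphorylates CREB1 and related factors. In melanocytes this route is known for raising MITF and pigment synthesis.

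The arrays were Agilent 1-colour arrays with probes of 60 bases, and every member probe was printed on 1 spot. The processed signal is the brightness of a spot after background subtraction by the scanner software, and the value after ± is the error that this software assigned to it. For a log2 difference, the log2 signal was first reduced by its array's 75th percentile, and the NC value was then taken from the si-THOC2 value, so that a negative number is a lower scaled signal with si-THOC2. The percentile was 6.62 with NC and 6.31 with si-THOC2. The lowest signals called well above background were 14.7 and 15.9 in that order, and 42.3% and 39.4% of the 58199 probes passed. Signals of different probes do not rank the amounts of their RNAs. In RNA from a culture, fewer expressing cells and less RNA per cell cannot be told apart.

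THOC2, the targeted gene, was lower at both of its probes on the array labelled si-THOC2. Its signal went from 136 ± 13.9 to 40.9 ± 5.22 at 1 probe (chromosome X, 122734486 to 122734545 on hg19, log2 difference -1.42) and from 67.3 ± 7.36 to 35.1 ± 4.78 at the other (-0.63, short of 2-fold). Of the 8 melanocyte markers listed, MITF, SOX10, S100B and DCT were well above background on both arrays, MLANA only with si-THOC2, and PMEL, TYR and TYRP1 on neither. The summed signal of these markers before scaling was 6712 with NC and 5575 with si-THOC2. Nearly all of it came from SOX10 (6196 ± 620 and 5196 ± 520), whose log2 difference after scaling was 0.06. For the markers of other cell types, signals are also given before scaling. Of 4 keratinocyte genes, 2 were measured (summed signal 32396 and 20734, nearly all from KRT10). Of 4 fibroblast genes, 1 was measured (DCN, 62.4 ± 7.26 and 149 ± 15.4). All 3 endothelial genes were well above background with NC but only 1 with si-THOC2 (summed signal 55.4 and 38.6). Of 3 leukocyte genes on the array, 2 were measured (56.7 and 69.7). The part of these markers in the results below was not tested.

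Most of the measured cAMP genes lay near the middle of all genes. Of the 104 probes, 65 (62.5%) were well above background on at least 1 array and could be compared, against 43.5% of all probes. Of these 65, 59 passed on both arrays and 6 (9.23%) with NC only, against 9.5% of all compared probes. None passed with si-THOC2 only, against 2.88% of all compared probes. The other 39 of the 104 were not well above background on either array. The 65 probes stood for 42 genes, and 24 genes had no signal well above background. The median log2 difference of the 42 genes was -0.02, against 0.02 over all 17514 genes compared, and 23 of the 42 (54.8%) were below 0, against 46.6%. Probes within 1 log2 unit of 0 made up 57 of the 59 measured on both arrays (96.6%). Over all probes measured on both arrays, 0.365% were lower by 2-fold and 0.829% higher. The SD of the log2 difference was 0.43 over the 59 member probes measured on both arrays, against 0.32 over such probes of all genes. The 0.43 includes the 2 lowest of the 59, probes of PDE4D (-1.54) and ADCY1 (-1.49). It was not computed without them, so it describes no wider spread of the other members.

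At 2-fold, 4 member probes were lower with si-THOC2, those of ADCY1, PDE4D, PDE8B and ADORA2A, and none was higher. The 4 were 6.15% of the 65, where 3.33% of all compared probes were lower and 2.93% were higher. ADCY1 and PDE4D were measured on both arrays, 2 of 59 probes (3.39%), where 0.365% of all such probes were lower and 0.829% higher. ADCY1, PDE4D and ADORA2A are among the genes the study went on to measure, and the members were chosen with results of these arrays known, so this count is no independent evidence. With si-THOC2, PDE8B and ADORA2A were not well above background. Of all 2409 probes measured with NC only 31.7% passed the same threshold. With dim signals set to their limit of detection, the count was 2 (3.08%), where 0.888% of all compared probes were lower. After normexp background correction, which adds an offset of 50 to all signals, it was 0, where 0.13% of all compared probes were lower. The NC signals of the 4 probes, 16.7 to 66.4, were near or below that offset, leaving little or no room for 2-fold. That 0 is therefore no test of these 4 differences. The values closest to the threshold were PDE8B at -1.02 inside it, and PKIG at -0.97 and AKAP11 at -0.91 outside it.

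**Figure D1:**
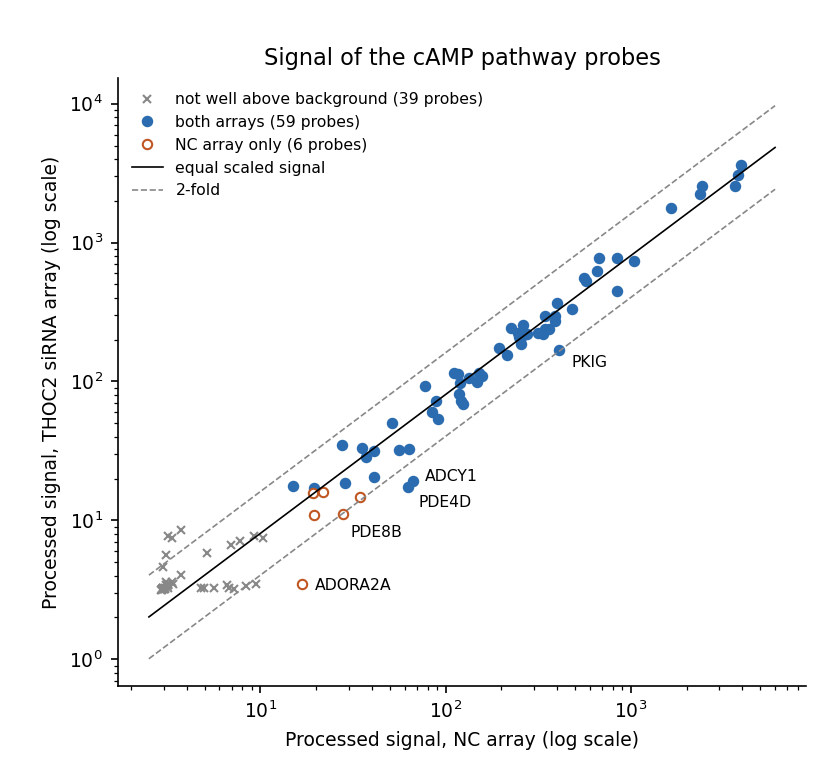
Processed signal of the 104 member probes on the NC array (x axis) and the THOC2 siRNA array (y axis), both on log scales. The solid line marks equal scaled signal and the dashed lines 2-fold; filled points were well above background on both arrays (59), open points with NC only (6) and crosses on neither (39), and ADCY1 and PDE4D are the only filled points beyond the lower dashed line.

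The error within an array grew as the signal fell. Probes printed on several spots gave a median technical SD of the log2 difference of 0.06 for 244 probes with a mean log2 signal over 8, 0.10 for 36 between 6 and 8, 0.23 for 5 between 4 and 6, and 0.43 for 15 below 4. These SDs leave out the differences between cultures. Members with overlapping probes give another measure of it. A pair of CREB1 probes that share 44 bases gave log2 differences of -0.49 and -0.06, a gap of 0.43 with signals between 31.8 and 56.0. A pair for PDE1C that share 37 bases gave -0.30 and -0.21, with signals between 109 and 335.

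Adenosine receptors are G protein-coupled receptors at the head of the pathway, ADORA2A and ADORA2B stimulating cyclases and ADORA1 and ADORA3 inhibiting them. ADORA2B was the one with a clear signal, which went from 656 ± 65.7 to 626 ± 62.6 and gave a log2 difference of 0.24 with an error of 0.20. ADORA1 was at the edge of detection, with 15.1 ± 3.32 and 17.6 ± 3.71 (0.53, error 0.44). ADORA2A had 2 probes. That on chromosome 22 from 24837485 to 24837544 gave 16.7 ± 3.54 with NC, and 3.49 ± 3.46 with si-THOC2 was not well above background. Its measured difference of -1.95 has an error of 1.46, and no fold can be given, because after scaling the NC signal was no higher than the limit of 15.9 on the other array. Among probes of like signal, 29.5% were as low. The other ADORA2A probe and ADORA3 were not well above background on either array.

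Adenylyl cyclases are the enzymes that make cAMP. Signals well above background came from 6 of the 10 genes, ADCY1, ADCY3, ADCY4, ADCY6, ADCY7 and ADCY9, all on both arrays. ADCY2, ADCY5, ADCY8 and the bicarbonate-regulated soluble cyclase ADCY10 were not well above background on either. Among the measured cyclases ADCY1 stood apart. ADCY1, a cyclase stimulated by calcium and calmodulin, had 1 probe at 7p12.3 (chromosome 7, 45762328 to 45762385, plus strand, hg19), whose signal fell from 66.4 ± 7.28 to 19.1 ± 3.80. Its log2 difference was -1.49 with an error of 0.33. Among the 1000 probes closest in mean signal, 1.20% were as low or lower.

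The other cyclases lay far inside 2-fold. ADCY3 went from 2433 ± 243 to 2542 ± 254, a log2 difference of 0.37, and ADCY6, which calcium inhibits, from 247 ± 24.9 to 225 ± 22.7 (0.17). ADCY7 was at 0.15, ADCY9 at 0.06 and ADCY4 at -0.19, each within its error of 0.21 to 0.22. ADCY3 was beyond its error of 0.20. The median of the 6 genes was 0.10, on the other side of 0 from ADCY1.

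Phosphodiesterases are the enzymes that remove cyclic nucleotides. Of 11 measured genes with such a symbol 9 lay below 0 (81.8%), where 46.6% of all genes did. The 9 include PDE6D (-0.02), which is not an enzyme, and PDE8B, measured with NC only. Over genes with probes on both arrays, 8 of 10 lay below 0, against 6764 of 15647 over all genes. The median log2 difference of the 11 genes was -0.22, and single probes on both arrays ran from -1.54 (PDE4D) to 0.51 (PDE2A). The other 11 phosphodiesterase genes were not well above background on either array. They can be grouped by substrate, a textbook grouping that was applied after the values were seen. The families that act on cAMP alone (PDE4, PDE7 and PDE8) had 6 measured genes, and all 6 were below 0, from -1.02 to -0.14, with a median of -0.43. All 6 were also below 0 under every other scaling tried. The median was -0.22 over the 5 genes with probes on both arrays and -0.19 after normexp background correction.

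PDE4D has 4 probes spread over 1.02 Mb of the minus strand of chromosome 5, and they gave unlike values. The probe nearest the 5′ end of the gene (59284034 to 59284093) fell from 62.9 ± 6.99 to 17.5 ± 3.66, a log2 difference of -1.54 with an error of 0.34, and 0.9% of probes of like signal were as low. The next one (59064074 to 59064133) was not well above background on either array. Further 3′, the probe from 58270554 to 58270613 went from 21.9 ± 3.86 to 16.1 ± 3.87, the second not well above background. Its log2 difference of -0.14 was within its error of 0.43 and was 0.01 after lowess centring, so it gives no direction. The probe nearest the 3′ end (58264927 to 58264986) went from 90.6 ± 9.54 to 54.0 ± 6.30, a log2 difference of -0.44. The gap of 1.1 log2 units between the outer probes exceeds the errors of both, 0.34 and 0.23. With normexp background correction the probes were at -0.45 and -0.22, a gap of 0.23. The normexp offset of 50 pulls the differences of dim probes toward 0, so it cannot decide whether the gap holds. PDE4D makes many mRNAs from separate start sites, and which of them each probe detects was not analysed here.

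The paralogs of PDE4D also had gene means below 0. PDE4C went from 63.3 ± 7.0 to 32.7 ± 4.62, at -0.65 with an error of 0.26. PDE4B was at -0.21 with an error of 0.21. PDE4A was at -0.14 over 3 probes, the brightest of which had signals of 3790 ± 379 and 3053 ± 305 and a log2 difference of 0.00. Another of its probes was at -0.43 (120.5 ± 12.4 and 72.1 ± 7.97), and the PDE4A mean rests on that probe.

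PDE8A and PDE8B bind cAMP with high affinity. PDE8B at 5q13.3 (76722793 to 76722852) gave 27.8 ± 4.19 with NC, and with si-THOC2 a value of 11 ± 3.63 that was not well above background. Its measured difference was -1.02, and as a bound it was at least 1.41-fold lower, which is short of 2-fold. PDE8A went from 118 ± 12.2 to 81.9 ± 8.78, at -0.22 with an error of 0.21. PDE7A and PDE7B were not well above background on either array.

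The remaining phosphodiesterases were mixed. PDE1C, which calcium and calmodulin activate, was below 0 at all 3 probes, and its probe from 31823156 to 31823215 on chromosome 7 went from 843 ± 84.4 to 450 ± 45.1, at -0.60 with an error of 0.20. Of the probes of like signal, 1.0% were as low. PDE2A, which cGMP stimulates, went the other way, from 672 ± 67.2 to 772 ± 77.2, at 0.51 with an error of 0.20. PDE10A, which hydrolyses both nucleotides, was at -0.07 at its 1 probe on both arrays. PDE9A, which acts on cGMP, disagreed between probes, with 0.36 at one and -0.19 at its brighter one, where signals were 1044 ± 104 and 740 ± 74.1. PDE6D, a carrier of prenylated proteins rather than an enzyme, was at -0.02.

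**Figure D2:**
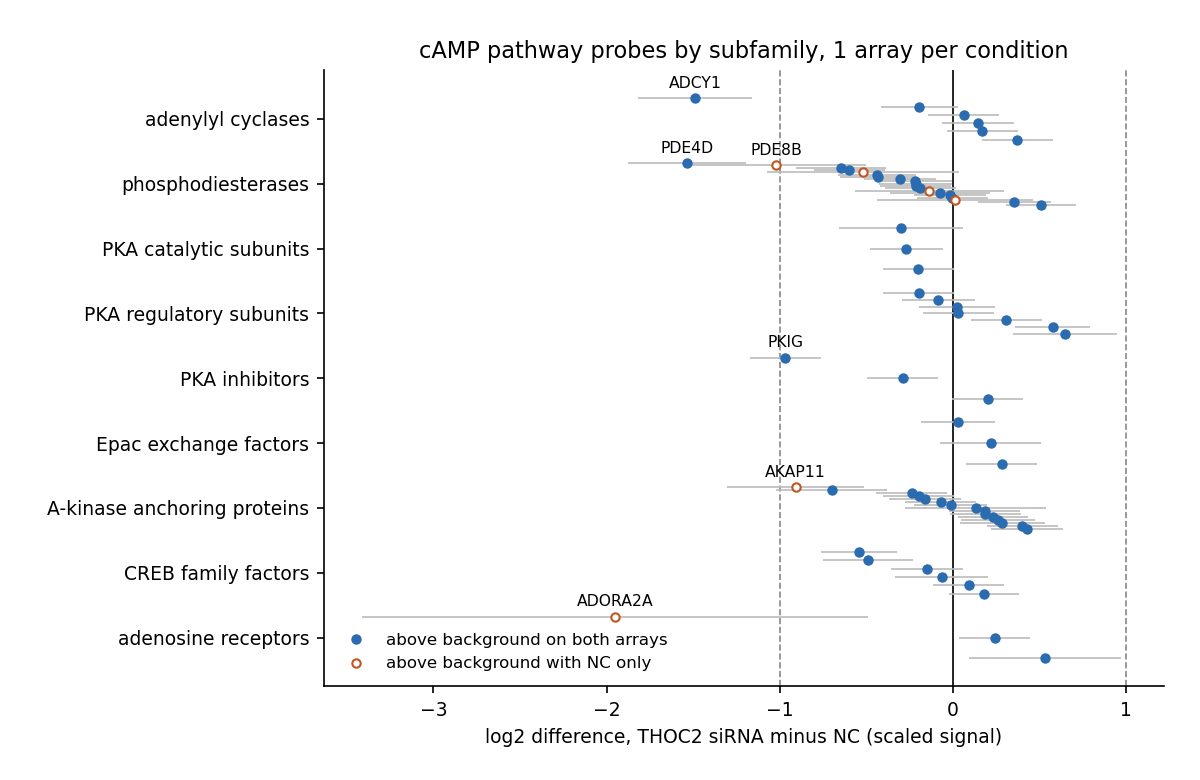
Log2 difference, si-THOC2 minus NC, of the 65 compared member probes by subfamily, with bars for the error that the scanner software's error model gives. Dashed lines mark 2-fold; the phosphodiesterases spread from -1.54 to 0.51 at probes on both arrays (filled), while the AKAP probes lie on both sides of 0.

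PKA is a tetramer of a regulatory subunit pair and a catalytic pair. Both measured catalytic genes lay below 0, by about the size of their errors. PRKACA went from 390 ± 39.2 to 274 ± 27.6, at -0.20 with an error of 0.21. PRKACB was at -0.27 at its brightest probe, from 148 ± 15.1 to 99.2 ± 10.5, and at -0.30 at another. PRKACG was not well above background on either array.

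All 4 regulatory subunits were measured on both arrays, with no common direction. PRKAR2A (chromosome 3, 48789055 to 48789114) went from 76.8 ± 8.24 to 92.5 ± 9.80, at 0.58 with an error of 0.22, the highest value of any member gene. PRKAR1B was at 0.33 over 3 probes, and its brightest probe had signals of 558 ± 55.9 and 559 ± 56.0, equal before scaling and at 0.31 after it. PRKAR1A was at -0.20, from 317 ± 31.8 to 223 ± 22.5, and PRKAR2B at -0.03. With 1.5-fold as the threshold, 9 of the 65 member probes (13.8%) were lower and 1 (1.54%) was higher, PRKAR1B at its dimmest probe (0.65). Over all compared probes the shares were 7.69% and 6.14%.

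The PKA inhibitors are short proteins that occupy the catalytic site of free PKA and carry it out of the nucleus. A PKIG probe had the lowest log2 difference of the single probes measured on both arrays after those of ADCY1 and PDE4D, while its gene mean was -0.63. At chromosome 20 (43218442 to 43218501, hg19) its signal went from 407 ± 40.8 to 168 ± 17.1, a log2 difference of -0.97 with an error of 0.21, just short of 2-fold. Among the probes of like signal 0.3% were as low, and in its part of the array 10.4% of probes were called lower, against 3.33% over the whole array. In that part 4.25% were called higher, against 2.93% over the whole array. Whether the place on the array had a part in the value was not tested. Centring each part on its own median gave -0.99, but this shifts all probes of a part alike and cannot decide it. The other PKIG probe, further 3′ (43246977 to 43247036), went from 362 ± 36.3 to 239 ± 24.1, at -0.29. PKIA was at 0.20, from 397 ± 39.8 to 369 ± 37.0, and PKIB was not well above background on either array.

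Epac proteins are exchange factors for the small GTPase Rap that cAMP opens directly, without PKA. RAPGEF3 (Epac1) was above 0 at all 3 probes, with a mean of 0.18, although with normexp the probe nearest the 3′ end was at 0.00. Its brightest probe went from 262 ± 26.4 to 257 ± 25.9, at 0.28, and the next from 119 ± 12.4 to 98.1 ± 10.5, at 0.03. RAPGEF4 (Epac2) was not well above background on either array.

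AKAPs tether PKA to mitochondria, membranes, centrosomes or the nucleus. Of the 15 genes, 10 were measured, 6 above and 4 (40%) below 0, against 46.6% below 0 among all genes. None of their 15 compared probes passed 2-fold, where 3.33% of all compared probes were lower and 2.93% higher. AKAP1, which holds PKA at the outer mitochondrial membrane, went from 3911 ± 391 to 3594 ± 359, at 0.19. AKAP12, a scaffold at the plasma membrane, had probes at 0.43, 0.23 and -0.20, the last from 3637 ± 364 to 2560 ± 256. Their spread of 0.63 is larger than their errors of 0.20 to 0.21, so no single direction can be given for AKAP12. AKAP8L, a nuclear AKAP, was at 0.40 with an error of 0.20 (1653 ± 165 and 1763 ± 176).

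AKAP11 and AKAP9 were the lowest of the AKAPs. For AKAP11 (chromosome 13) the probe from 42877096 to 42877155 went from 34.4 ± 4.54 to 14.8 ± 3.57, the second not well above background, and was at least 1.75-fold lower. The brighter probe of AKAP11, from 482 ± 48.3 to 330 ± 33.2, was at -0.24. AKAP9, a large scaffold of the centrosome and Golgi, was at -0.70 with an error of 0.32 at a dim probe (41.1 ± 5.06 and 20.4 ± 3.78) and at -0.16 with an error of 0.21 at a brighter one. After centring each part of the array on its own median, the brighter AKAP9 probe was at -0.38. In both genes the dimmer probe was the lower one. AKAP4, a protein of the sperm tail, was measured at 1 of 2 probes, close to background at 19.5 ± 3.55 and 17.2 ± 3.68. AKAP2, AKAP3, AKAP5, AKAP6 and AKAP14 were not well above background on either array.

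CREB1, CREM and ATF1 bind the cAMP response element and carry the signal to transcription. CREB1 went from 124 ± 12.8 to 68.8 ± 7.66 at its brightest probe (chromosome 2, 208462917 to 208462976), at -0.54 with an error of 0.22. Its other probes are the overlapping pair at -0.49 and -0.06. CREM was at -0.03 over 2 probes, with signals of 344 ± 34.6 and 296 ± 29.8 at the brighter one (0.09). ATF1 went from 574 ± 57.5 to 525 ± 52.6, at 0.18. The 3 factors had no common direction.

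The response element itself, TGACGTCA, reads the same on both strands. It was searched for in the RefSeq promoter windows of the members (GRCh38.p14, 250 bases before to 50 after a gene start), which were held for 54 of the 66 genes. It was found in 6 of 139 member windows (4.32%) and in 1.85% of all 35116 windows, and the 6 belong to 4 genes, or 7.41% of the members with a window against 2.25% of 27305 genes. Their sites are shown, 5′ to 3′ on the plus strand with the element in capitals, because the element is what CREB1, CREM and ATF1 are known to bind.
CREM, chr10:35195841-35195870: gagctgcacatTGACGTCAgctccgagtca
PRKAR1A, chr17:68512370-68512399: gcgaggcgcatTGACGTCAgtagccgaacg
PDE4A, chr19:10416759-10416788: cgtcagtccgcTGACGTCAcgccccaggag
PDE7B, chr6:135851535-135851564: actaaacccttTGACGTCActcttgaaatg
None of the 4 passed 2-fold. CREM was at -0.03, PDE4A at -0.14 and PRKAR1A at -0.20, while PDE7B was not well above background on either array. The shorter core TGACG, which lies inside the full element and was searched for on both strands, was in 24.5% of member windows and 24.6% of all windows (42.6% and 28.4% counted by gene, where a gene can have several windows). The 17 measured members with the core had a median log2 difference of -0.03 and the 19 without it -0.07. A match of letters is not evidence that a factor was bound.

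Of the member genes, 16 had at least 2 compared probes, and the probes of 1 gene often differed. Ordered along the gene, which was done after the values were seen, the probe nearest the 5′ end was the lower one in 10 of the 16 (62.5%), against 45.7% of 4248 such genes on the array. With normexp background correction it was 8 of the 16, against 41.9% of all such genes, and with no detection filter 10 of 25 (40%), against 47.3%. The median gap between the outer probes was -0.17 in the members and 0.03 over all genes, and with normexp 0.00 and 0.04. After PDE4D and PKIG the widest gaps with a lower 5′ probe were those of AKAP11 (-0.67) and AKAP9 (-0.54), and the widest in the other direction were those of PRKAR1B (0.62) and PDE9A (0.54). With normexp the gap of AKAP11 turned to 0.06 and that of PRKACB from -0.03 to 0.22, and that of AKAP9 shrank to -0.06. With si-THOC2 the 5′ probes of AKAP11 and PDE10A were not well above background. Which mRNA forms these probes detect was not analysed here.

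**Figure D3:**
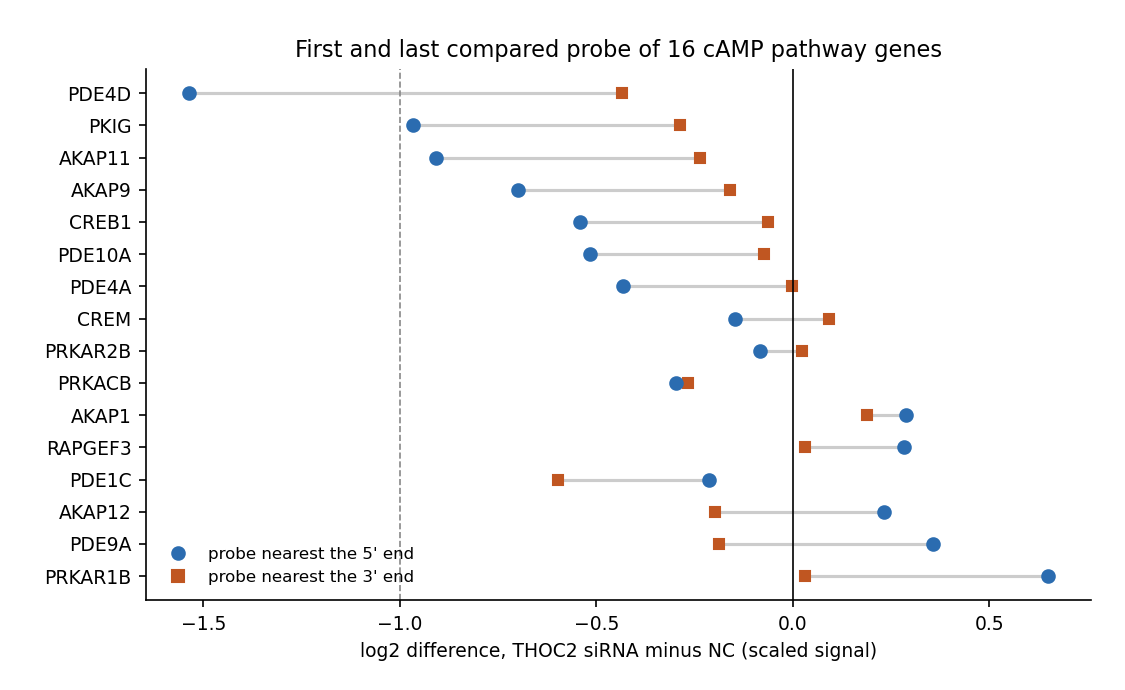
Log2 difference, si-THOC2 minus NC, of the compared probe nearest the 5′ end (circles) and nearest the 3′ end (squares) of 16 member genes, ordered by the gap, with the dashed line at 2-fold lower. The circle lies left of the square in 10 genes, most widely in PDE4D, where the pair is at -1.54 and -0.44.

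The genes around these members were also mostly inside 2-fold. A list of 49 further genes of the pathway, made up of G protein alpha subunits, stimulatory receptors, cyclic nucleotide-gated channels and popeye proteins, CREB coactivators, exporters, cyclic GMP kinases with PRKX, and CREB targets, had 32 measured genes with a median log2 difference of 0.13. Of its 39 compared probes 1 was lower by 2-fold, GNAI1, and 1 higher, SST, where 3.33% of all compared probes were lower and 2.93% higher. GNAI1, an inhibitory G protein subunit, went from 29.3 ± 4.18 to 11.2 ± 3.45, the second not well above background, at least 1.49-fold lower. SST, the hormone somatostatin, was at 28.9 ± 4.52 with si-THOC2 and not well above background with NC, at least 2.45-fold higher. MC1R, the melanocortin receptor of melanocytes, went from 1632 ± 163 to 1227 ± 123, at -0.10, the lowest of the 5 stimulatory receptors measured. The highest was VIPR1, a receptor for vasoactive intestinal peptide, at 0.94 with an error of 0.24 (44.8 ± 5.39 and 69.3 ± 7.67). The stimulatory subunit GNAS was at 0.24 at its brightest probe, with signals of 48274 ± 4827 and 46117 ± 4612. The 5 CREB coactivators ran from -0.07 to 0.24. Of the CREB targets measured on both arrays, NR4A3 was the lowest at -0.30, and the single highest probe was of NR4A2, at 0.86 with an error of 0.38, whose other probe was at -0.03. FOS, DUSP1, SIK1, NR4A1 and PER1 lay between -0.03 and 0.17.

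**Figure D4:**
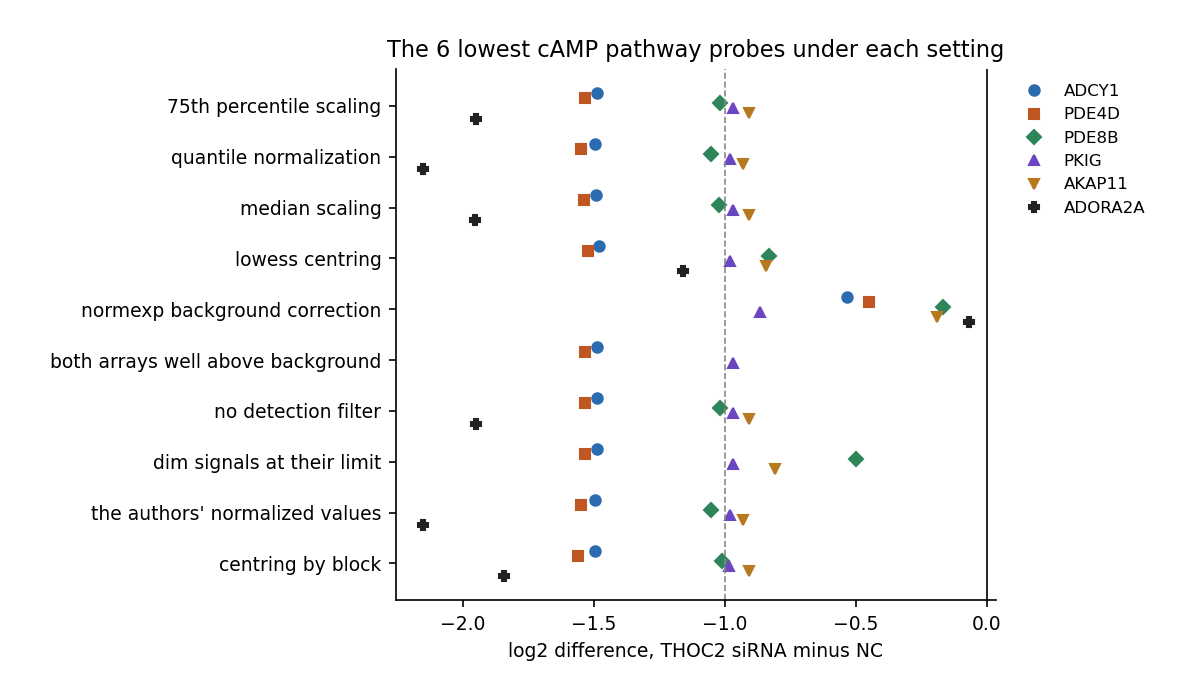
Log2 difference, si-THOC2 minus NC, of the 6 lowest member probes under the scaling used here and 9 alternatives, with the dashed line at 2-fold. With normexp background correction all 6 lie above -1, PKIG lowest at -0.87 and ADCY1 next at -0.53; a missing point means that the setting gave the probe no value.

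After normexp background correction ADCY1 was at -0.53, the 5′ probe of PDE4D at -0.45, PDE8B at -0.17, AKAP11 at -0.19 and ADORA2A at -0.07. PKIG, whose signals were over 100 on both arrays, was at -0.87. The normexp offset of 50 pulls the differences of dim probes toward 0, so the smaller values there are no test of the dim probes. No other scaling or filter brought ADCY1 or the 5′ PDE4D probe inside 2-fold.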

How the data were processed

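RNA of 2 A375 cultures, 1 per condition, was hybridized to arrays of 1 slide that were scanned together. The authors made the deposited intensity of each spot with Feature Extraction 10.7.1.1, which subtracts background and removes trends over the array. Per the file headers, coordinates are hg19. The authors also deposited normalized log2 values with equal quantiles on both arrays, used as an alternative, and a table of their own fold changes, not used here. Control spots were left out with 147 (NC) and 168 (si-THOC2) outlier spots, and no spot was saturated. Repeat spots were averaged as log2 values, giving 58199 probes. A probe was compared if either array was well above background (25345 probes) and called at 2-fold. Compared probes of a gene were averaged. The error of a log2 difference adds the errors of both spots in quadrature. Where 1 array was not well above background, the "at least" fold divides the bright signal by the dim one or by the lowest signal called above background on that array, whichever is higher. Arrays limit the precision by their number, 1 per condition: no p-value was computed, and the Student's test that the methods name cannot be run.

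The members, lists and rules were chosen with earlier results of these data known. Probes named in full were those past 2-fold, the 2 brightest of each subfamily, all probes of ADCY1, PDE4D and ADORA2A, and genes whose probes differed by over 1 log2 unit. Others were named after their values were seen. Of the member symbols 65 of 66 are current in RefSeq, and AKAP2 is now part of PALM2AKAP2. Exons and UTRs were not analysed here. Alternatives were quantile and median scaling, lowess centring (span 0.3), normexp (offset 50), detection required on both arrays or not at all, dim signals moved up to the limit, the authors' values, centring by block of spots (16 down, 8 across) and folds of 1.5 and 3. The comparison was tested on simulated data for probes well above background on both arrays, with the same noise at all signals. That simulation does not cover the larger errors of dim probes or calls of probes measured with NC only. Tools were Python 3.11.15, numpy 2.4.6, pandas 2.3.3, statsmodels 0.14.6, matplotlib 3.10.9, R 4.3.3 and limma 3.58.1.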

Additional observations from a re-analysis of the deposited data

How the results depend on the processing

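Most values kept their direction, and the count of lower probes depended on the treatment of dim signals. No paired analysis was possible because each condition has a single array. Against 4 lower member probes, normexp background correction gave 0 (with 0.13% of all probes lower). Both arrays well above background and dim signals at their limit gave 2 each (0.365% and 0.888% of all probes). A fold of 3 gave 1 (1.98% of all probes) and a fold of 1.5 gave 9 (7.69%). Without the probes of ADCY1, PDE4D and ADORA2A, an alternative chosen after seeing the data, 1 was left, PDE8B. Against 0 higher member probes, no detection filter gave 4 of 104, where 5.37% of all probes were higher. All 4 were not well above background on either array. A fold of 1.5 gave 1 higher member probe, where 6.14% of all compared probes were higher. The median over member genes moved only without a detection filter, to 0.163 over 66 genes, where the median of all genes was 0.236. The mean of the THOC2 probes was -1.03 and moved only with normexp, to -0.51. Of the 65 compared probes, normexp moved 10 by more than their error, dim signals at their limit 1, centring by block 1 and the other alternatives none, and no value past 2-fold changed its sign. Normexp adds an offset of 50 to all signals, which by itself pulls the log2 differences of dim probes toward 0. How much of each change came from the offset was not tested. Detection sets the depth: the 39 member probes not well above background on either array give no direction.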

Other observations

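The 39 member probes not well above background on either array include every probe of PDE3A, PDE3B, PDE5A, PDE7A, PDE7B and PDE11A, which hydrolyse cAMP, cGMP or both. Their log2 differences carry errors of up to 2.05 and were not read.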
